A study of Homo sapiens with 18 samples.

Results

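Among the reads of 3′ mRNA sequencing libraries from ERH-targeted human cells, 2 symbols name structured nuclear or ribosomal RNAs that normally end without a poly(A) tail: 7SK and 5_8S_rRNA (5.8S ribosomal RNA). These 2 of 39859 symbols in the count tables, of which 25001 had a read, were selected on their measured values, namely their read counts and multimapping read counts over the 6 groups, because both were higher with the guide RNA against ERH (sgERH) than with sgAAVS1, the control guide, which cuts at the AAVS1 safe-harbour locus. The difference between guides is therefore given below as a description, with no test. The tests concern what the selection did not use, which are the responses to 2 cytokines, their difference between guides and the base content of the reads.

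RKO-iCas9 is a human colon carcinoma line in which doxycycline switches on Cas9. Sorted cells that carried sgERH or sgAAVS1 received 100 ng/mL doxycycline for 5 days, and then 25 ng/mL IFNγ, 10 ng/mL IL-1β or water (non-treated, NT) for 4 h, so the control cells also made Cas9 and carried a cutting guide. The cells were edited pools, in which a share of cells can keep an intact ERH gene. QuantSeq primes complementary DNA with oligo-dT and reads the fragment next to a run of A, so the values are counts of 3′ ends that could be primed in this way, and not the total amount of an RNA.

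The labels gave 3 biological replicates in each of the 6 groups but do not say whether they were separate cultures, so a p-value here reflects the variation among these libraries. The study removed 3 libraries after a principal component analysis (sgERH IFNγ replicate 2, sgAAVS1 IL-1β replicate 3 and sgAAVS1 NT replicate 1), and the same 15 libraries were used here, with n = 2 for sgERH IFNγ, sgAAVS1 IL-1β and sgAAVS1 NT and n = 3 for the other groups. The 8 sgERH libraries held 5059922 to 5580416 reads and the 7 sgAAVS1 libraries 4987127 to 5986338. ERH, the targeted gene, was at 257 to 355 CPM (reads scaled to a library total of 1000000) in sgERH and 515 to 592 CPM in sgAAVS1. In the left-out library labelled sgAAVS1 NT replicate 1 it was at 52.7 CPM, below every sgERH library, which goes against that label. The sgERH libraries had at least 10 reads for 12474 to 12694 genes and the sgAAVS1 libraries for 11842 to 12127, and multimapping reads made up 21.1% to 23.2% of reads in sgERH and 20.4% to 21.3% in sgAAVS1. The part of these library differences in the results below was not tested. The epithelial markers KRT8, KRT18 and EPCAM and the intestinal factor CDX2 had reads in all 15 libraries, while the epithelial KRT19 and the colon markers CDX1 and KRT20 had none. The epithelial CDH1 and the colon markers VIL1 and CDH17 had 1 read each over the 15 libraries, and the colon marker LGALS4 had 14. Leukocyte markers summed to at most 0.395 CPM in sgERH and 0.192 CPM in sgAAVS1, and fibroblast or endothelial markers to at most 0.763 CPM in sgERH and 0 in sgAAVS1.

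7SK is a small nuclear RNA made by RNA polymerase III. It is capped by MEPCE, protected at its 3′ end by LARP7 and, with HEXIM1 or HEXIM2, holds the elongation kinase P-TEFb (CDK9 with a cyclin T) in an inactive store from which it is released when genes need it. The 5.8S RNA is part of the large ribosomal subunit. It is cut out of the long ribosomal precursor made by RNA polymerase I, and its 3′ end is trimmed by the nuclear exosome with the helicase MTREX and by ERI1. Neither RNA carries a poly(A) tail in its working form, although short runs of A can be added to nuclear RNAs of this kind before they are trimmed or degraded.

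The 3′ ends of the annotated copies are printed because oligo-dT priming depends on what stands there. GENCODE 44 places 7 genes named 7SK on GRCh38. The copy on chromosome 6 (chr6:52995620-52995950, plus strand) overlaps the gene RN7SK (chr6:52995621-52995948, plus strand), and the other 6 lie on chromosomes 1 (3 copies), 3, 11 and 17. The copies on chromosomes 1, 3, 11 and 17 matched the chromosome 6 copy at 67.1% to 86.6% of aligned bases, the highest being the copy on chromosome 17 (chr17:35889558-35889804, plus strand). The last 60 annotated bases of these 2 copies follow in lower case, with the next 30 bases of the genome in capitals (chr6:52995891-52995980 and chr17:35889745-35889834).
7SK, chromosome 6, end: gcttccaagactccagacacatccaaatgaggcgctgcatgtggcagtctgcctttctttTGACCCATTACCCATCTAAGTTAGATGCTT
7SK, chromosome 17, end: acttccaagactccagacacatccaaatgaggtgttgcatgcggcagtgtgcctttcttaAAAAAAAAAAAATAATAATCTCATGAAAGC
The chromosome 17 copy runs into a stretch of 13 A in the genome. The chromosome 6 copy has no run of A longer than 3 in its last 250 bases or in the 50 bases that follow. The last 250 bases of the chromosome 6 copy (chr6:52995701-52995950) are shown next, with capitals at the bases that differ from the chromosome 17 copy or have no partner in it.
7SK, chromosome 6: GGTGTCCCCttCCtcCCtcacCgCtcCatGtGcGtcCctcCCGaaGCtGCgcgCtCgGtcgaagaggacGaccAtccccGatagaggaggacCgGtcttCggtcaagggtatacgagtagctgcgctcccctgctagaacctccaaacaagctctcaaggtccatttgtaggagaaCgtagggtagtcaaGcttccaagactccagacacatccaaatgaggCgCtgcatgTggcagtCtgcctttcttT
The 3′ part of the molecule is nearly the same in both copies, so that a short read from it can map to more than 1 place.

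For 5_8S_rRNA, GENCODE 44 lists 6 genes, on chromosomes 14, 20 (3 copies), 21 and 22. The files give this symbol a counting length of 500 bases, or 2 windows of 250, that hold 111 T. Of the 15 pairs of these genes, 1 pair has this number of T in its last 250 bases, the copies chr14:16057472-16057622 and chr21:8256781-8256933 (both plus strand). These are shown with capitals at the bases that differ between them or have no partner.
5.8S, chromosome 21: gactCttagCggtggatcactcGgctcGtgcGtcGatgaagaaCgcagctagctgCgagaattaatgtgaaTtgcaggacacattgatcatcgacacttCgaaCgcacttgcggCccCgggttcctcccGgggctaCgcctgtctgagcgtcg
5.8S, chromosome 14: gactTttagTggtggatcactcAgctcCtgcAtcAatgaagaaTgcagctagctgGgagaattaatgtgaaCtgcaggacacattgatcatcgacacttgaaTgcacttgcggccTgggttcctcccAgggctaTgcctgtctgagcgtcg
The copies differ by 13 substitutions and 2 gap bases (91.4% identity). The chromosome 21 copy is identical over its whole length to the genes RNA5-8SN1, RNA5-8SN2 and RNA5-8SN3 on the same chromosome. No 5.8S copy has more than 4 A in a row in its last 250 bases or the next 50. A run of AAAAAA on the gene's own strand stands in the last 250 bases of 21.3% of the 62700 genes of the annotation and on the other strand in 17.4%. It is in none of the 6 genes named 5_8S_rRNA and in 4 of the 7 named 7SK, those on chromosomes 1 and 11. The 7SK symbol has a counting length of 1500 bases that hold 387 T, which no set of 6 of its 7 genes matched, so which of these copies were counted was not resolved.

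Reads under 7SK were roughly 3 times as frequent in sgERH as in sgAAVS1 in each treatment. With IFNγ, 7SK was at 42.9 and 42.2 CPM in sgERH (217 and 221 reads), against 15.4, 11.7 and 14.7 CPM in sgAAVS1 (77, 66 and 75 reads). With IL-1β it was at 43.3, 55.3 and 44.7 CPM in sgERH (234, 285 and 236 reads), against 11.6 and 13.9 CPM in sgAAVS1 (60 and 72 reads). In NT cells it was at 37.3, 29.0 and 40.5 CPM in sgERH (207, 155 and 226 reads), against 14.4 and 11.7 CPM in sgAAVS1 (75 and 70 reads). The guides did not overlap in any treatment, the lowest sgERH library being NT replicate 2 and the highest IL-1β replicate 2. The share of all genes without such overlap is not given here. The mean in sgERH was 42.5 ± 0.518 CPM with IFNγ, 47.7 ± 6.55 CPM with IL-1β and 35.6 ± 5.95 CPM in NT cells, and the mean in sgAAVS1 was 13.9 ± 2.00, 12.8 ± 1.64 and 13.0 ± 1.91 CPM in the same treatments (SD). The ratios of these means, sgERH over sgAAVS1, were 3.05, 3.74 and 2.73. Within sgERH the 3 treatments did not overlap, with IL-1β above IFNγ and IFNγ above NT, while within sgAAVS1 they overlapped. How many of all genes separate in this way is not given here, and no cytokine response of 7SK was called in the tests below. Because 7SK was chosen for the difference between guides, these values describe the choice, in a comparison in which 8.89% of the 13370 genes tested were called and 6.75% rose. A gene was called, here and throughout, where its adjusted p was no more than 0.05 and its log2 fold change was 1 or more in size. In bulk RNA, more cells with such reads and more reads per cell cannot be told apart.

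Reads under 5_8S_rRNA were fewer and differed more. With IFNγ, 5_8S_rRNA was at 31.4 and 29.0 CPM in sgERH (159 and 152 reads), against 5.61, 3.72 and 3.14 CPM in sgAAVS1 (28, 21 and 16 reads). With IL-1β it was at 22.0, 31.6 and 21.8 CPM in sgERH (119, 163 and 115 reads), against 3.48 and 4.06 CPM in sgAAVS1 (18 and 21 reads). In NT cells it was at 25.0, 25.6 and 28.3 CPM in sgERH (139, 137 and 158 reads), against 4.03 and 4.18 CPM in sgAAVS1 (21 and 25 reads). Again the guides did not overlap, which describes the choice, and the IL-1β replicate 2 library of sgERH was the highest of the 15. The mean in sgERH was 30.2 ± 1.72 CPM with IFNγ, 25.1 ± 5.61 CPM with IL-1β and 26.3 ± 1.75 CPM in NT cells, and the mean in sgAAVS1 was 4.16 ± 1.30, 3.77 ± 0.409 and 4.10 ± 0.102 CPM in the same treatments (SD), with ratios of 7.27, 6.66 and 6.41. In sgERH both IFNγ libraries lay above all 3 NT libraries, while the IL-1β and NT libraries overlapped, and in sgAAVS1 the IL-1β and NT libraries also overlapped. Here too the number of all genes that separate so is not given, and no cytokine response of 5_8S_rRNA was called in the tests below. The sgAAVS1 values rest on few reads. The exact 95% Poisson interval for the 16 reads of sgAAVS1 IFNγ replicate 3 is 1.79 to 5.10 CPM, and for the 159 reads of sgERH IFNγ replicate 1 it is 26.7 to 36.7 CPM. Such intervals cover counting error only, since the libraries carry no molecular identifiers.

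**Figure D1:**
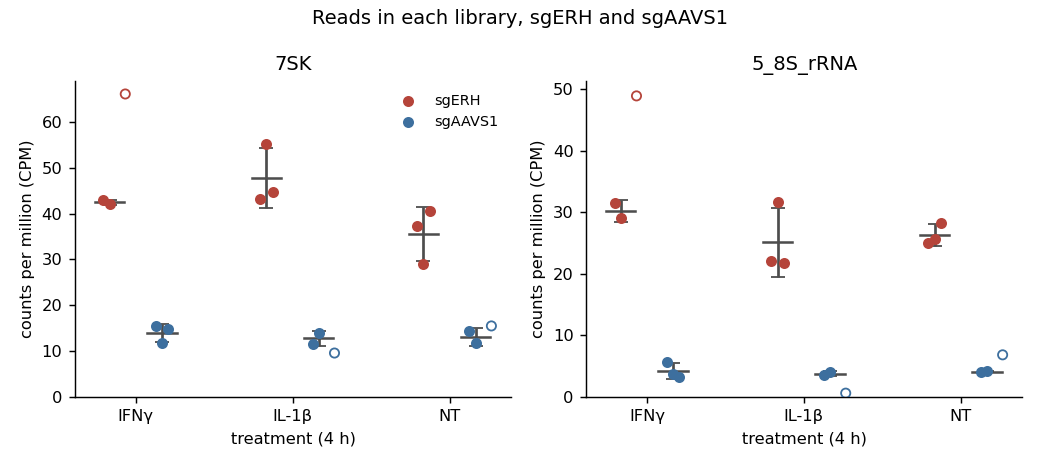
CPM (vertical axis, linear from 0) of 7SK and 5_8S_rRNA in each library by treatment, with sgERH in red left of sgAAVS1 in blue. Filled points are the 15 libraries used, lines and bars their mean ± SD, and open points the 3 libraries left out. In every treatment all sgERH points lie above all sgAAVS1 points, for 7SK at 29.0 CPM or more against 15.5 CPM or less.

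In a model fitted across all genes, the difference between guides averaged over the 3 treatments was 1.50 ± 0.11 (SE) on the log2 scale for 7SK, and 1.47 ± 0.19 with IFNγ, 1.76 ± 0.20 with IL-1β and 1.27 ± 0.20 in NT cells. For 5_8S_rRNA it was 2.60 ± 0.15 on average, and 2.71 ± 0.25, 2.59 ± 0.28 and 2.49 ± 0.27 in the same treatments. Since the selection used this contrast, nothing is read from the place of either RNA, which stood at positions 86 (5_8S_rRNA) and 378 (7SK) from the top of the 13370 fold changes. Scaling moved the whole table. Without the TMM scaling factors the median log2 difference of all genes was 0.20, against 0.04 with them, and 88.6% of calls were rises, against 75.9%.

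Most reads of both symbols map to more than 1 place in the genome. For 7SK, 55.9% to 77.0% of reads per library were multimapping in sgERH and 58.4% to 85.3% in sgAAVS1. The uniquely mapping reads of 7SK numbered 50 and 70 with IFNγ, 71, 94 and 104 with IL-1β and 66, 46 and 55 in NT cells in sgERH, against 32, 23 and 14 with IFNγ, 18 and 16 with IL-1β and 11 and 15 in NT cells in sgAAVS1. The guides did not overlap in these reads, which are the read counts less the multimapping counts. The selection used both counts, so this again describes the choice. The ratio of mean unique CPM, sgERH over sgAAVS1, was 2.63 with IFNγ, 5.18 with IL-1β and 4.38 in NT cells.

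The uniquely mapping reads of 7SK matched those of RN7SK in number. The numbers under the 2 symbols differed by at most 3 in every one of the 18 libraries and were equal in 10 of them. The genes overlap on chromosome 6, so a read there can be counted under both names, and RN7SK gives no independent value. All reads of RN7SK averaged 49.2 ± 9.53 CPM in the 8 sgERH libraries and 12.5 ± 1.92 CPM in the 7 sgAAVS1 libraries (SD), a fitted difference of 1.81 ± 0.12 on the log2 scale. The ratio of 7SK to RN7SK reads was 0.761 to 0.933 in sgERH and 0.923 to 1.42 in sgAAVS1.

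**Figure D2:**
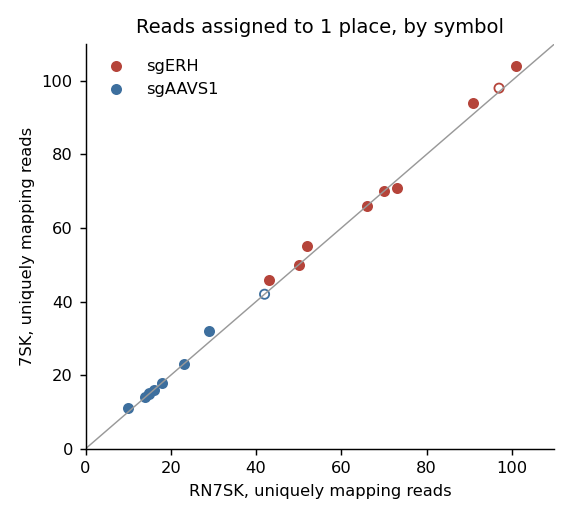
Uniquely mapping reads under the symbol 7SK (vertical axis) against those under RN7SK (horizontal axis), 1 point per library, sgERH in red and sgAAVS1 in blue, open points for the 3 libraries left out, and a line of equal numbers. No point is more than 3 reads off the line.

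For 5_8S_rRNA, a single read of 1142 in the 8 sgERH libraries and a single read of 150 in the 7 sgAAVS1 libraries mapped uniquely, so this RNA has no value that is free of shared sequence. Reads of the identical genes were spread over the symbols. RNA5-8SN2 averaged 26.6 ± 6.25 CPM in sgERH and 4.68 ± 1.46 CPM in sgAAVS1, and RNA5-8SN3 averaged 33.8 ± 8.28 CPM in sgERH and 4.50 ± 1.46 CPM in sgAAVS1 (SD, n = 8 sgERH and n = 7 sgAAVS1). RNA5-8SN1 had at most 5 reads in any library. The symbol 5_8S_rRNA took 31.0% ± 3.46 of the reads under the 4 symbols in sgERH and 30.6% ± 3.82 in sgAAVS1, a difference smaller than the spread of the libraries. Summed over the 4 symbols, 5.8S reads came to 73.7 to 120.0 CPM in sgERH and 9.61 to 16.4 CPM in sgAAVS1. Among the 15 libraries used, IL-1β replicate 2 of sgERH had the highest value under RNA5-8SN2 (39.0 CPM) and RNA5-8SN3 (49.4 CPM), as it did for 7SK and 5_8S_rRNA. It also had the highest share of multimapping reads (23.2%) and the lowest ERH level (257 CPM) of the 15. The part of these traits in its values was not tested.

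**Figure D3:**
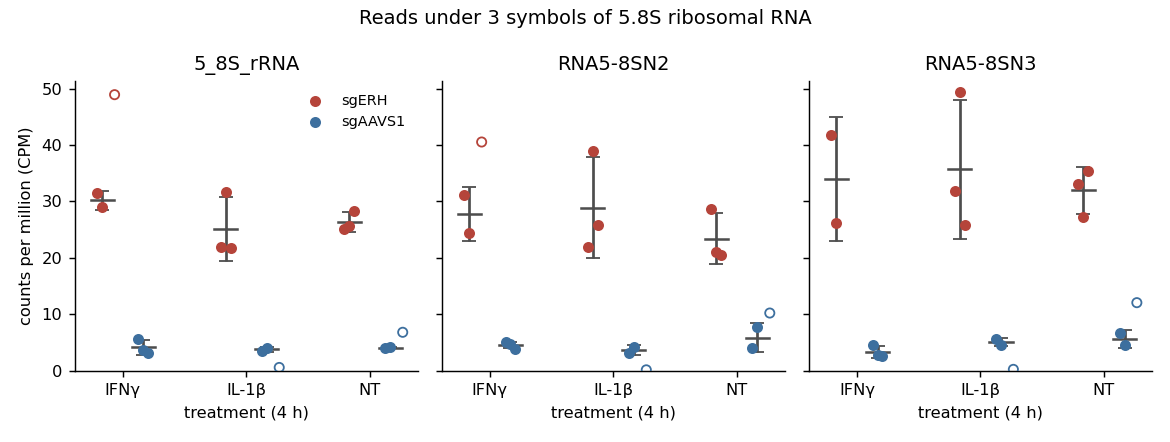
CPM (vertical axis, shared and linear from 0) under 5_8S_rRNA, RNA5-8SN2 and RNA5-8SN3 in each library by treatment, sgERH in red left of sgAAVS1 in blue, filled points with mean ± SD for the 15 libraries used and open points for those left out. Under each symbol the kept sgERH libraries lie above the kept sgAAVS1 libraries, which stay at 7.68 CPM or less.

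The RNAs did not differ by the same factor. Per library, 1.13 to 2.05 reads of 7SK were counted for each read of 5_8S_rRNA in sgERH, against 2.75 to 4.69 in sgAAVS1. Among themselves, replicates of a group varied by a pooled SD of 0.21 on the log2 CPM scale for 7SK and 0.26 for 5_8S_rRNA.

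The cytokines were compared with NT cells within each guide, a contrast that the selection did not rest on. Neither RNA was called in any of these comparisons (edgeR's quasi-likelihood test with Benjamini-Hochberg adjustment over the 13370 genes). For IFNγ against NT, 7SK differed by 0.23 ± 0.17 on the log2 scale in sgERH (adjusted p = 0.838) and by 0.04 ± 0.21 in sgAAVS1 (adjusted p = 0.971). For IL-1β against NT it differed by 0.42 ± 0.16 in sgERH, with a 95% interval of 0.10 to 0.74 (unadjusted p = 0.0123 and adjusted p = 0.209 by edgeR), and by -0.08 ± 0.23 in sgAAVS1 (adjusted p = 0.941). The sgERH interval for IL-1β leaves out 0 before adjustment, and its 3 libraries (43.3 to 55.3 CPM) lay above the 3 NT libraries (29.0 to 40.5 CPM). How many of all genes separate in this way is not given here. Among all genes, 0.015% were called with IFNγ in sgERH, 0.598% with IFNγ in sgAAVS1, 0.292% with IL-1β in sgERH and 0.636% with IL-1β in sgAAVS1.

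5_8S_rRNA differed by 0.17 ± 0.21 with IFNγ in sgERH (adjusted p = 0.917) and by -0.05 ± 0.32 in sgAAVS1 (adjusted p = 0.973 by edgeR). With IL-1β it differed by -0.07 ± 0.19 in sgERH (adjusted p = 0.910) and by -0.17 ± 0.35 in sgAAVS1 (adjusted p = 0.903 by edgeR). The 95% intervals in sgERH were -0.25 to 0.60 for IFNγ and -0.46 to 0.32 for IL-1β, and those in sgAAVS1 were wider (-0.70 to 0.60 and -0.90 to 0.55), so the sgAAVS1 values, at 16 to 28 reads a library, are the less precise ones.

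The difference between guides in the cytokine response was tested as an interaction. For 7SK it was 0.20 ± 0.27 with IFNγ (adjusted p = 0.951) and 0.50 ± 0.28 with IL-1β (95% interval -0.08 to 1.07, adjusted p = 0.509 by edgeR). For 5_8S_rRNA it was 0.22 ± 0.38 with IFNγ (95% interval -0.55 to 1.00, adjusted p = 0.968) and 0.10 ± 0.40 with IL-1β (95% interval -0.71 to 0.92, adjusted p = 0.942 by edgeR). Among all genes 0.202% were called for the IFNγ interaction and 0% for IL-1β, where edgeR gave 1487 genes at an unadjusted p under 0.05 and DESeq2 called 2. No change of the guide difference with a cytokine passed the test for either RNA.

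**Figure D4:**
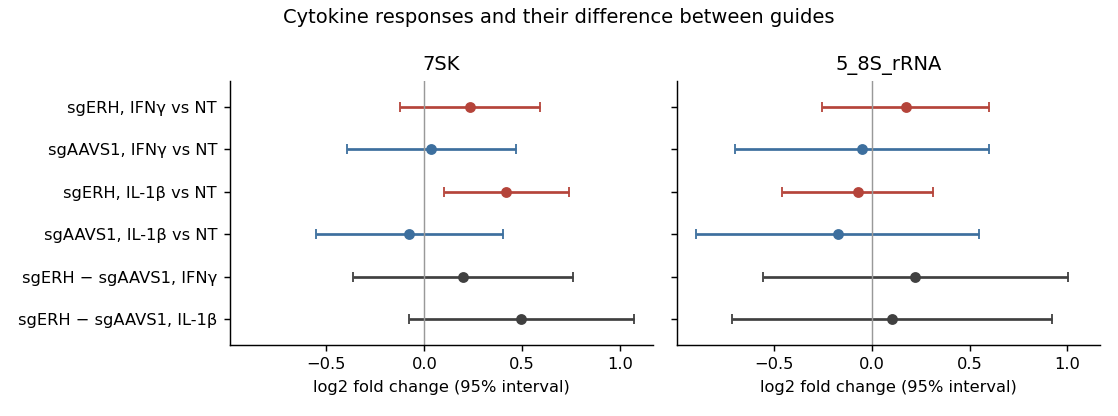
Log2 fold change with its 95% interval (horizontal axis) for 7SK and 5_8S_rRNA, for each cytokine against NT in sgERH (red) and in sgAAVS1 (blue), and for the sgERH response minus the sgAAVS1 response (grey). All intervals include 0 except that of 7SK with IL-1β in sgERH (0.10 to 0.74, adjusted p = 0.209 by edgeR).

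The files also give how many T positions the reads of a symbol covered, which reflects which stretch of the RNA was read. For 7SK this was 9.12 ± 0.207 T per read in sgERH and 9.20 ± 0.335 in sgAAVS1 (SD, n = 8 and n = 7, exact permutation test of the guide labels within treatments, two-sided p = 0.74, and 0.74 after adjustment over the 2 RNAs). For 5_8S_rRNA it was 9.48 ± 0.175 in sgERH and 9.15 ± 0.620 in sgAAVS1 (exact permutation p = 0.156, adjusted 0.312, over 1000 arrangements). The base content of the reads was not shown to differ between guides. Of the T positions covered in 7SK, 13 of 16233 were read as C in sgERH and 4 of 4562 in sgAAVS1, and in 5_8S_rRNA 20 of 10831 in sgERH and 1 of 1371 in sgAAVS1, where the rate over all genes was 0.128% in both guides.

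Genes of the pathways around these RNAs were taken from lists, and their average difference between guides was tested in the same fit, with CPM given as mean ± SD (n = 8 sgERH and n = 7 sgAAVS1). The log2 differences use TMM factors (1.02 to 1.08 in sgERH and 0.916 to 0.967 in sgAAVS1) and the CPM do not. A pair of CPM means can therefore differ from its log2 difference in size or sign. No gene of the 5 protein lists was called. Across all genes 23.2% were lower and 25.5% higher in sgERH by a second rule, an adjusted p no larger than 0.05 whatever the fold. Among the 7 proteins of the 7SK particle and P-TEFb (LARP7, MEPCE, HEXIM1, HEXIM2, CDK9, CCNT1 and CCNT2), 1 was lower and 1 higher by this rule, with a median log2 difference of 0.07 against 0.04 for all genes. LARP7, which binds the 3′ end of 7SK, was at 161 ± 15.3 CPM in sgERH and 199 ± 14.6 CPM in sgAAVS1 (log2 difference -0.47 ± 0.07, adjusted p = 3.72e-06 by edgeR). MEPCE, its capping enzyme, was at 104 ± 13.1 CPM in sgERH and 83.7 ± 8.10 CPM in sgAAVS1 (0.13 ± 0.08, adjusted p = 0.188 by edgeR). HEXIM2, named after its value was seen, was the member that was higher (0.74 ± 0.31, adjusted p = 0.0480 by edgeR), and it passed in neither DESeq2, nor the fit of all 18 libraries, nor 9 of the 15 fits with a library left out. LARP7 did not pass with all 18 libraries.

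Of the 14 factors that release 7SK or act with P-TEFb in elongation, 6 were lower and 3 higher by the second rule (4 and 5 without TMM factors), with a median of -0.17. HNRNPA2B1, an RNA-binding protein that can hold 7SK apart from P-TEFb, was at 488 ± 95.6 CPM in sgERH and 794 ± 92.0 CPM in sgAAVS1 (log2 difference -0.84 ± 0.12, adjusted p = 0.000100 by edgeR), just short of the fold for a call. HNRNPA1, its relative, was at 328 ± 26.7 CPM in sgERH and 366 ± 33.0 CPM in sgAAVS1 (-0.31 ± 0.06). The lowest and highest members, named after their values were seen, were SRSF2 (-0.88 ± 0.08) and ELL (0.54 ± 0.11). Of the 23 subunits of RNA polymerase III and factors of its 7SK-type promoters, 12 were higher and 3 lower (14 and 0 without TMM factors, when 37.5% of all genes were higher and 14.2% lower), with a median of 0.27. The abundant members SSB, which binds the U-rich end of new transcripts, and MAF1, a repressor of the polymerase, differed by -0.04 ± 0.06 and 0.01 ± 0.08 on the log2 scale. The highest members, named after their values were seen, were ZNF143 (0.91 ± 0.17), SNAPC2 (0.81 ± 0.08) and BRF2 (0.71 ± 0.15), and the lowest was POU2F1 (-0.36 ± 0.12).

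Of the 24 genes listed around maturation of the 3′ end of 5.8S RNA, 13 were lower in sgERH and none higher by the second rule, with a median log2 difference of -0.28. Not all of these trim that end themselves, among them XRN2, PES1, WDR12 and BOP1, of which BOP1 was lower. Without TMM factors 11 were lower and 1 higher (14.2% of all genes were then lower). In the fit of all 18 libraries 5 were lower, and the share of all genes lower in that fit is not given here. MTREX, the exosome helicase, was at 159 ± 11.5 CPM in sgERH and 198 ± 18.5 CPM in sgAAVS1 (-0.48 ± 0.07, adjusted p = 1.38e-06 by edgeR), and NOP53, which brings it to the precursor, was at 303 ± 23.2 CPM in sgERH and 283 ± 12.8 CPM in sgAAVS1 (-0.05 ± 0.06). The lowest members, named after their values were seen, were the exosome core subunits EXOSC3 (-0.85 ± 0.11), EXOSC8 (-0.72 ± 0.08) and EXOSC9 (-0.70 ± 0.06). Of the 14 genes listed around nuclear addition and removal of A tails, 4 were lower and 2 higher (2 and 2 without TMM factors), with a median of -0.07. Not all of these genes add or remove A themselves, among them TUT7, which was higher, and ZC3H18, which was lower. PABPN1, the nuclear poly(A)-binding protein, was at 343 ± 39.6 CPM in sgERH and 467 ± 34.6 CPM in sgAAVS1 (-0.60 ± 0.07, adjusted p = 6.87e-08 by edgeR), and PAPOLA, the main poly(A) polymerase, at 211 ± 10.6 CPM in sgERH and 222 ± 10.4 CPM in sgAAVS1 (-0.23 ± 0.06).

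Other RNAs that end without a poly(A) tail were counted as well. Most symbols of these families had too few reads for the fit, and a symbol that passed the filter only through the group where it is high had to differ, so the counts are descriptions. Of all genes tested, 6.75% rose. Of 148 symbols of the 7SK family other than 7SK, 48 had a read, 5 were tested and 4 rose, with RN7SK far above the pseudogenes RN7SKP90 (1.02 ± 0.680 CPM in sgERH and 0.194 ± 0.162 CPM in sgAAVS1), RN7SKP255 (1.27 ± 0.777 CPM in sgERH and 0.194 ± 0.273 CPM in sgAAVS1) and RN7SKP9 (2.76 ± 1.29 CPM in sgERH and 0.742 ± 0.589 CPM in sgAAVS1). Of their reads, 54.0% were multimapping for RN7SKP90, 19.7% for RN7SKP255 and 88.4% for RN7SKP9. Of 265 ribosomal RNA symbols other than 5_8S_rRNA, 87 had a read, 8 were tested and 5 rose. Besides RNA5-8SN2 and RNA5-8SN3 the highest were 5S ribosomal RNA, made by RNA polymerase III, under RNA5S1 (8.32 ± 1.55 CPM in sgERH and 1.07 ± 0.375 CPM in sgAAVS1) and RNA5SP145 (22.9 ± 6.67 CPM in sgERH and 3.43 ± 1.19 CPM in sgAAVS1), nearly all of whose reads were multimapping. RN7SK, RNA5-8SN2 and RNA5-8SN3 share sequence with 7SK or 5_8S_rRNA, so their rises are not independent of the choice. With uniquely mapping reads only, 1 of 2 tested symbols of the 7SK family was called, as a rise, and 0 of 3 of ribosomal RNA. Of all genes tested in these reads, 8.78% were called in either direction.

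Small RNAs of other families moved in both directions. Of 25 tested symbols for the signal recognition particle, Y, vault and RNase P or MRP RNAs, 6 rose and 1 fell, where 6.75% of all genes tested rose and 8.89% were called. RPPH1, the RNA of RNase P, was at 15.5 ± 5.78 CPM in sgERH and 0.704 ± 0.50 CPM in sgAAVS1, with 0.146% of its reads multimapping. The Y RNA pseudogene RNY4P25 was at 3.32 ± 1.93 CPM in sgERH and 0.103 ± 0.137 CPM in sgAAVS1, and the vault RNA VTRNA1-2 at 2.00 ± 0.636 CPM in sgERH and 0.601 ± 0.496 CPM in sgAAVS1. Another vault RNA, VTRNA1-3, fell to 8.54 ± 2.01 CPM in sgERH, against 20.4 ± 4.15 CPM in sgAAVS1 (-1.43 ± 0.14, adjusted p = 3.22e-09 by edgeR). Higher reads in sgERH were not shared by every RNA of this kind.

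Of 57 tested small nuclear RNA symbols, 29 rose and none fell, where 6.75% of all genes tested rose. With uniquely mapping reads only, 35 such symbols were tested and 8 were called, all of them rises, where 8.78% of all 12363 genes tested were called in either direction. The 4 with the largest difference were the minor spliceosome RNA RNU6ATAC (18.2 ± 6.32 CPM in sgERH and 0.903 ± 0.465 CPM in sgAAVS1), its pseudogenes RNU6ATAC10P (3.56 ± 1.56 CPM in sgERH and 0.0529 ± 0.0905 CPM in sgAAVS1) and RNU6ATAC28P (1.56 ± 0.856 CPM in sgERH and 0.0754 ± 0.135 CPM in sgAAVS1), and RNU6-6P (18.8 ± 4.10 CPM in sgERH and 1.80 ± 0.482 CPM in sgAAVS1). Of their reads, 40.7%, 96.1%, 87.0% and 96.9% were multimapping, in the same order. The most abundant symbol, RNU4ATAC, did not rise, at 1189 ± 543 CPM in sgERH and 1270 ± 262 CPM in sgAAVS1 (-0.31 ± 0.22, adjusted p = 0.282 by edgeR). By the adjusted p alone 31 symbols were higher and 3 lower, among the latter U4 (-0.78 ± 0.11). Of 71 tested small nucleolar and Cajal body RNA symbols, 12 rose and 3 fell, beside the same 6.75% of all genes that rose, with a median log2 difference of -0.05 that turned to 0.11 without TMM factors. The largest differences were those of SCARNA10 (2.63 ± 1.21 CPM in sgERH and 0.275 ± 0.645 CPM in sgAAVS1), SNORD24 (0.838 ± 0.894 CPM in sgERH and 0.0286 ± 0.0758 CPM in sgAAVS1), SNORD46 (11.9 ± 4.07 CPM in sgERH and 0.536 ± 0.414 CPM in sgAAVS1) and SNORD21 (1.46 ± 0.690 CPM in sgERH and 0.159 ± 0.205 CPM in sgAAVS1). Many of these RNAs lie within introns of protein-coding genes, and reads of the host transcript were not told apart from them.

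**Figure D5:**
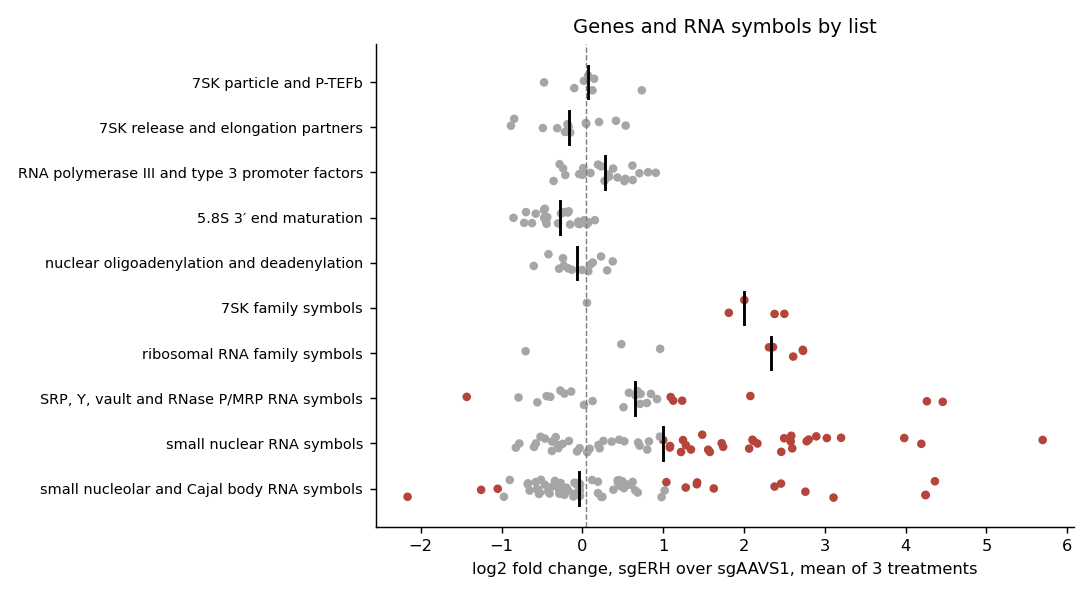
Log2 fold change, sgERH over sgAAVS1, averaged over the 3 treatments (horizontal axis) of each tested symbol by list, with called symbols in red, others in grey, a black bar at the list's median and a dashed line at the median of all genes (0.04). No symbol of the 5 protein lists is red, while those of the RNA families reach from below -2 to above 5, with medians of 2.00 for the 7SK family and 2.33 for ribosomal RNA.

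The genes with a pattern most like that of each RNA were found by the root-mean-square difference of centred log2 CPM over the 15 libraries. For 7SK they were JUND (0.20), SMOX (0.20), MXI1 (0.20), SESN2 (0.20) and ABL2 (0.21), where the median gene stood at 0.84, and RN7SK was at position 7 (0.22). JUND, an AP-1 transcription factor, was at 222 ± 28.3 CPM in sgERH and 64.2 ± 7.47 CPM in sgAAVS1, and SESN2, a stress-responsive inhibitor of mTORC1 signalling, at 207 ± 29.8 CPM in sgERH and 75.1 ± 9.90 CPM in sgAAVS1. All 5 are messenger RNAs with at most 0.217% multimapping reads. Their differences between guides were 1.29 (MXI1) to 1.64 (JUND) on the log2 scale, beside 1.50 for 7SK. For both RNAs this order mostly follows the difference between guides, which exceeded the spread of replicates and which the selection used. The positions are therefore descriptions.

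For 5_8S_rRNA the nearest were MMP1 (0.26), RNU2-1 (0.29), FP236383.3 (0.30), U2 (0.30) and RNA5-8SN2 (0.32), against a median of 1.33, and RNA5-8SN3 was at position 8 (0.35). MMP1, which encodes a collagenase, was at 35.7 ± 3.48 CPM in sgERH and 4.74 ± 0.951 CPM in sgAAVS1. RNU2-1 and U2 name the U2 small nuclear RNA of the spliceosome, at 60.7 ± 5.56 CPM in sgERH and 12.7 ± 3.23 CPM in sgAAVS1 under RNU2-1 and 24.4 ± 2.09 CPM in sgERH and 3.23 ± 0.878 CPM in sgAAVS1 under U2. FP236383.3 was at 1139 ± 72.2 CPM in sgERH and 223 ± 36.5 CPM in sgAAVS1, with 99.9% multimapping reads. 7SK stood at position 70 in this order, and 5_8S_rRNA at position 1748 in that of 7SK.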

How the data were processed

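RNA of RKO-iCas9 cells was measured by QuantSeq 3′ mRNA sequencing in 18 libraries. Per the submitters' processing notes, the authors used FastQC 0.11.8 and Trim Galore 0.6.2, the first for quality control and the second for trimming. SlamDunk placed them on GRCh38 and counted those in 3-GAmES 3′-end windows, which were collapsed per symbol. The deposited counts of reads are raw, with counts of multimapping reads and, as other columns of the authors, window length, T content and T positions covered. The kit's oligo-dT priming and the multimapping of repeated RNAs bear on every value here.

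Here, CPM are counts scaled to a library total of 1000000, without the TMM factors that the log2 differences use. Tests used edgeR 4.0.16 in R 4.3.3 (quasi-likelihood, robust, TMM, filterByExpr), as 1 model of the 6 groups over 15 libraries and 13370 genes, adjusted by Benjamini-Hochberg. The study used DESeq2, which was an alternative here (1.42.0). The edgeR test was checked on simulated counts before use. T per read was compared by an exact permutation test, which that check did not cover. Sequences and genes came from GRCh38 with GENCODE 44, aligned with Biopython. Alternatives were other scalings, no filter, all 18 libraries, only the groups compared, a replicate block, uniquely mapping reads only, and leaving out each library. The members and lists were chosen with earlier results of these data known. Named genes were both RNAs, RN7SK and RNA5-8SN symbols with reads, per list up to 4 called members with the largest difference (with none called, the 2 most abundant), and the 5 nearest patterns. Further list members were named after their values were seen.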

Additional observations from a re-analysis of the deposited data

Results flagged for a closer look

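In libraries outside the fit, 4 values lay above every sgAAVS1 library used. The left-out sgERH IFNγ replicate 2 library had 7SK at 66.2 CPM (284 reads, exact 95% Poisson interval 58.7 to 74.3) and 5_8S_rRNA at 48.9 CPM (210 reads, interval 42.5 to 56.0), where the highest sgAAVS1 library used had 15.4 and 5.61 CPM. Both were also above every sgERH library used. That an sgERH library lay above the sgAAVS1 libraries describes the choice of these RNAs and is no separate support for it. The left-out library labelled sgAAVS1 NT replicate 1 had 7SK at 15.5 CPM (59 reads, interval 11.8 to 20.0) and 5_8S_rRNA at 6.82 CPM (26 reads, interval 4.46 to 10.0), so the highest sgAAVS1 library used lay within both intervals. Its ERH level of 52.7 CPM goes against its label, and the same library had RNA5-8SN2 at 10.2 CPM, RNA5-8SN3 at 12.1 CPM and 29.1 CPM of 5.8S reads summed over the 4 symbols, where the highest sgAAVS1 libraries used had 7.68, 6.72 and 16.4 CPM. The lowest sgERH libraries used were higher, at 29.0 CPM for 7SK, 21.8 CPM for 5_8S_rRNA and 73.7 CPM for the 5.8S sum. This left-out library had 3811492 reads, 9657 genes with at least 10 reads and 26.3% multimapping reads, all outside the range of the libraries used. ERH was at 126 CPM in the left-out sgERH IFNγ replicate 2. Whether the sgAAVS1 label is wrong was not tested. The third library left out, sgAAVS1 IL-1β replicate 3, had 9.56 CPM of 7SK (113 reads) and 0.592 CPM of 5_8S_rRNA (7 reads), below every library used.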

How the results depend on the processing

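The 7SK and 5_8S_rRNA differences between guides kept their direction in every alternative that could be fitted (8 settings and 15 fits with a library left out). 5_8S_rRNA could not be fitted with uniquely mapping reads only, because too few remained, and the average comparison not with only the groups compared. No cytokine response or interaction of either RNA was called in any alternative. Values below are log2 differences or numbers of called genes, and the cause of each change was not tested. With uniquely mapping reads only, the 7SK guide difference was 1.25 with IFNγ, 2.22 with IL-1β, 1.93 in NT cells and 1.80 on average, and the 7SK IL-1β response in sgAAVS1 (0.45, adjusted p = 0.731 by edgeR) and the IFNγ interaction (-0.68, adjusted p = 0.899 by edgeR) changed sign. In these reads the 7SK IFNγ response in sgAAVS1 was 0.86 (95% interval 0.05 to 1.66, adjusted p = 0.490 by edgeR), against 0.04 with all reads, and the IL-1β response in sgERH was 0.74 (0.23 to 1.26, adjusted p = 0.165 by edgeR), against 0.42. With all 18 libraries, the guide difference was 1.74 for 7SK with IFNγ, and 3.02 with IFNγ, 3.15 with IL-1β and 2.13 in NT cells for 5_8S_rRNA, and the 7SK IFNγ response in sgAAVS1 was -0.13. Without TMM factors the IFNγ response of 5_8S_rRNA in sgAAVS1 was 0.011.

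With a library left out, near-zero cytokine values of both RNAs changed sign. For 7SK in sgAAVS1 the IFNγ response ranged from -0.11 (without sgAAVS1 NT replicate 3) to 0.20 (without sgAAVS1 NT replicate 2) and the IL-1β response from -0.24 to 0.085 (without the same libraries). For 5_8S_rRNA, the IFNγ response in sgAAVS1 ranged from -0.31 to 0.11 (without sgAAVS1 IFNγ replicates 1 and 3), the IL-1β response in sgERH from -0.30 to 0.043 (without sgERH IL-1β replicates 2 and 3) and the IL-1β interaction from -0.12 to 0.23 (without sgERH IL-1β replicate 2 and sgAAVS1 IL-1β replicate 2).

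The number of called genes depended more on the setting. For IFNγ in sgAAVS1 it was 80, and 22 with all 18 libraries. For IFNγ in sgERH it was 2, and 8 with DESeq2, 16 without a filter, 1 with all 18 libraries, 5 with uniquely mapping reads and 16 with only the groups compared. For IL-1β in sgAAVS1 it was 85, and 154 with DESeq2, 203 without a filter, 12 with all 18 libraries and 276 with only the groups compared. For IL-1β in sgERH it was 39, and 68 without a filter, 7 with all 18 libraries and 17 with only the groups compared. For the IFNγ interaction it was 27, and 3 with all 18 libraries. For the IL-1β interaction it was 0, and 2 with DESeq2 and 70 without a filter. With a library left out these numbers ranged from 56 to 130 for IFNγ in sgAAVS1, 2 to 11 for IFNγ in sgERH, 18 (without sgAAVS1 NT replicate 2) to 261 (without sgERH IL-1β replicate 2) for IL-1β in sgAAVS1, 19 to 87 for IL-1β in sgERH, 16 to 39 for the IFNγ interaction and 0 to 140 (without sgERH IL-1β replicate 3) for the IL-1β interaction.

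By the adjusted p alone, with all 18 libraries, 3 elongation partners were lower and 1 higher. In the same fit 1 polymerase III factor was lower and 5 higher, and 1 gene of the A-tail list was lower and none higher. What share of all genes was lower or higher in that fit is not given here, so these counts have no background beside them. Called genes in the average guide difference went from 1189 to 968 with all 18 libraries. With sgERH IL-1β replicate 2 left out, 2 symbols of the 7SK family and 1 polymerase III factor were called, and with uniquely mapping reads only 1 symbol of the 7SK family and no ribosomal RNA symbol was.

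Same-numbered libraries did not deviate together (correlations of deviations from the group means -0.05 to 0.12 over 30 pairs, and 6 of 15 libraries closest to their own number), so replicate numbers were not taken to pair samples. A replicate block called 174 genes for IL-1β in sgAAVS1 and gave average guide differences of 1.51 for 7SK and 2.64 for 5_8S_rRNA.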
